A study of Mus musculus with 42 samples.

Results

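The 7 liver secretory genes of the complement system and the acute phase response followed here were C2, C4, C9, C4bp, Serping1, Orm1 and Crp. They are the mouse probes of a dedicated lipid and drug metabolism cDNA array whose printed name is that of a member or its synonym, and they make up 7 of the 277 mouse genes measured. The livers came from female C57BL/6 mice killed 24 h after an intraperitoneal injection, given in the morning, of vehicle (corn oil), of TCPOBOP (3 mg/kg) in corn oil, or of PCN (40 mg/kg) in corn oil. TCPOBOP activates CAR, the constitutive androstane receptor, and PCN activates PXR, the pregnane X receptor, in mice.

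Mice ate standard chow throughout, or for 1 week before treatment a Western diet with 1% cholesterol, a different feed, so that cholesterol and the rest of that feed cannot be told apart. On standard diet 6 vehicle and 6 TCPOBOP mice were measured, and on cholesterol diet 5 vehicle, 6 TCPOBOP and 6 PCN mice, all against reference pool 1, a mix of liver RNA from every treatment and diet. A further 5 vehicle and 6 PCN mice on standard diet were hybridised against another mix, called pool 3, and are kept apart. Vehicle groups and TCPOBOP mice on standard diet were 19 weeks old, and TCPOBOP mice on cholesterol diet 18. PCN mice were 16 on cholesterol diet and 18 to 19 on standard diet. Age and treatment therefore cannot be told apart on the cholesterol diet, nor can age and diet among TCPOBOP mice. The interaction of TCPOBOP and diet holds the same age difference. Every value is a log2 ratio of a mouse's liver RNA over its pool; a fold change is the difference of 2 group means of these ratios.

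Complement is a cascade of plasma proteins made mostly by hepatocytes, which marks microbes and dying cells and ends in a pore in the target membrane. In the acute phase response, cytokines such as interleukin-6 act through STAT3, C/EBP and NF-kB factors to raise the hepatocyte's output of some plasma proteins and to lower that of others. C2 and C4 form the convertase of the classical and lectin pathways, C9 is the last component of the membrane attack complex, and C4bp binds C4b and takes that convertase apart. Serping1 is the C1 inhibitor, which blocks the proteases that start the classical pathway. Orm1 (orosomucoid, alpha-1-acid glycoprotein) is a plasma carrier of drugs that rises strongly in the mouse acute phase. Crp is C-reactive protein, a pentraxin that is a main acute phase protein in humans and only a minor reactant in mice.

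On GRCm38.p6 C2 lies on chromosome 17 at 34862602 to 34882100, C4bp on chromosome 1 at 130635921 to 130661657, C9 on chromosome 15 at 6445346 to 6498825, Crp on chromosome 1 at 172698056 to 172699966, Orm1 on chromosome 4 at 63344556 to 63348163 and Serping1 on chromosome 2 at 84765360 to 84775444. The name C4 on the array is a synonym of both C4a (chromosome 17, 34809092 to 34823460) and C4b (chromosome 17, 34728139 to 34743902), near-identical copies whose RNA this probe cannot tell apart. Orm1 has close paralogs in the mouse, so its probe can also bind their cDNA.

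RefSeq promoter windows were available for only 3 members, C9, C4bp and Crp, and the 250 bases before the start that the table gives for each are shown. Among the members C9 and C4bp had the largest falls with TCPOBOP and Crp moved the other way. Capitals mark matches, on either strand, to TTNNGNAAT (a C/EBP consensus), CCAAT (the CCAAT box), GTTAATNAT (an HNF1 consensus) and TATAAA (the TATA box).
C9 (chr15:6445096-6445345, plus strand, GRCm38.p6): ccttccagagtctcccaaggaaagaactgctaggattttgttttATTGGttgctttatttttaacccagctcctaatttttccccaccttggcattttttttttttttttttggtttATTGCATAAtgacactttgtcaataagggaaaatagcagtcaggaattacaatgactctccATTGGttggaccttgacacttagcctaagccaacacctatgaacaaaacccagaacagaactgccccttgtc
C4bp (chr1:130661619-130661868, minus strand, GRCm38.p6): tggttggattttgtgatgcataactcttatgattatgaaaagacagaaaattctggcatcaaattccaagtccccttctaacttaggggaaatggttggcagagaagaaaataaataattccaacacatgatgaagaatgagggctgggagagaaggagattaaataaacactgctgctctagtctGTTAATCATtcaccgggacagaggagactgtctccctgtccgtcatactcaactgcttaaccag
Crp (chr1:172697806-172698055, plus strand, GRCm38.p6): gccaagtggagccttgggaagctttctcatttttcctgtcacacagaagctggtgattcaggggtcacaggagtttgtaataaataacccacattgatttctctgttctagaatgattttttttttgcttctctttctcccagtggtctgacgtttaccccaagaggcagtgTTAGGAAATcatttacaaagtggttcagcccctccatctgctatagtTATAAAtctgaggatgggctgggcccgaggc
In C9 the C/EBP match began 133 bases and the CCAAT matches 206 and 72 bases before the start. The C4bp window held the HNF1 match, 64 bases before the start in that table, and none of the other 3 motifs. That start lies inside the C4bp gene span given above, so the end of the window overlaps the span. Crp held a C/EBP match 78 bases and a TATA match 31 bases before its start. Of all 32851 promoter windows of this length, 10.2% held the C/EBP letters, 33.8% CCAAT, 0.737% the HNF1 letters and 12.4% TATAAA. The STAT letters TTCNNNGAA (7.02% of windows) and the NF-kB letters GGGACTTTC (0.289%) matched in none of the 3 members. A match describes the letters only and shows no binding.

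All 7 members were above background on all 40 arrays, and 0 mouse probes had most of their spots saturated in the liver channel. Single saturated spots and the reference channel were not counted. The SD between the 3 spots of a member's probe had a median over pool 1 arrays of 0.03 for Orm1 to 0.05 for Serping1 on the log2 scale. Between mice of the same group the pooled SD was larger than this median, from 0.18 for Crp to 0.40 for C9. On single arrays the spots could disagree more than the mice did. The largest spot SD was 0.34 for C2, 0.51 for C4, 0.41 for C9 and 0.45 for C4bp, each above that gene's pooled SD between mice. On the dimmer pool 3 arrays the median spot SD was 0.05 for Crp to 0.15 for C4. Median net signal was 158 to 297 on pool 1 arrays and 23.6 to 137 on pool 3 arrays. All 11 hepatocyte markers on the array were above background on 37 to 40 of the 40 arrays. Cyp2b10, the classical CAR target, had log2 fold changes with TCPOBOP of 2.98 on standard diet (SE 0.15, adjusted p = 1.09e-12 in limma) and of 3.15 on cholesterol diet (SE 0.16, adjusted p = 9.22e-13 in limma). Cyp3a11, the classical PXR target, rose with PCN on standard diet by 0.99 (SE 0.19, adjusted p = 0.0281 in limma), while its value on cholesterol diet was 0.92 (SE 0.24, adjusted p = 0.104 in limma). It rose with TCPOBOP too, by 1.04 on standard diet (SE 0.20, adjusted p = 3.05e-04 in limma). On cholesterol diet that rise was 1.39 (SE 0.21, adjusted p = 2.05e-05 in limma), so Cyp3a11 does not mark the PCN mice alone.

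**Figure D1:**
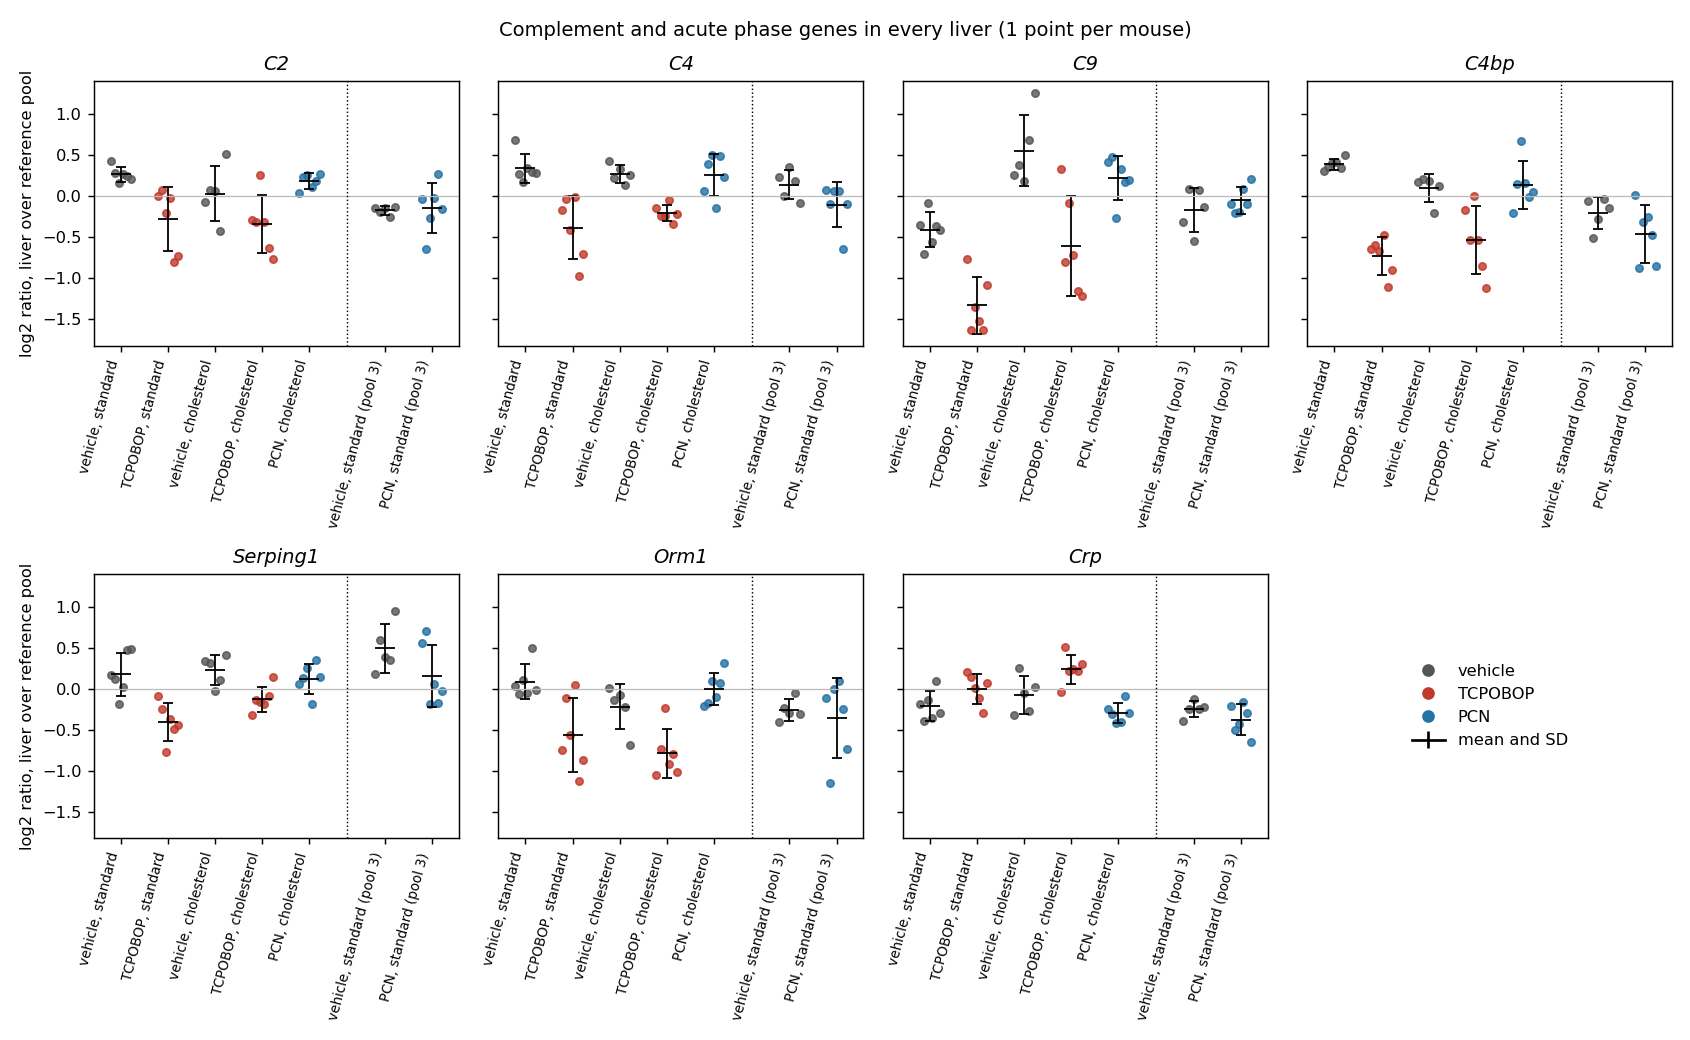
Log2 ratio of liver RNA over the reference pool (vertical axis) for the 7 genes in each of the 7 groups, 1 point per mouse, with the group mean and SD in black. The dotted line separates pool 3, whose levels are not on the same scale as pool 1. The TCPOBOP groups sit below their vehicle groups for every gene but Crp, most clearly for C4bp on standard diet, and C9 is higher in vehicle mice on cholesterol diet than on standard diet.

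On standard diet 6 of the 7 genes fell with TCPOBOP. C4bp fell 2.18-fold, C9 1.90-fold, C4 1.65-fold, Orm1 1.56-fold and C2 1.47-fold, Serping1 fell by 0.58 on the log2 scale, and each was below the vehicle mean in 6 of 6 TCPOBOP mice. Crp did not pass the test, with a log2 fold change of 0.21 in the opposite direction. Much of the array moved with TCPOBOP: 43.3% of the 277 genes passed an adjusted p under 0.05, of which 21.3% of all genes were lower and 22% higher, and the members' count of 6 stands against the 21.3%. The median log2 fold change was -0.65 over the 7 members and -0.01 over all genes. In whole liver RNA, fewer cells of a type and less RNA per cell cannot be told apart.

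Among the components of the cascade, C2 ranged from 0.16 to 0.43 (median 0.26) in the 6 vehicle mice on standard diet and from -0.81 to 0.07 (median -0.11) in the 6 TCPOBOP mice. These groups did not overlap, although 4 TCPOBOP mice lay between -0.20 and 0.07 and the other 2 far lower, at -0.81 and -0.73. The fall of C2 was 0.55 on the log2 scale (SE 0.17, adjusted p = 0.0137 in limma).

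C4 ranged from 0.17 to 0.69 (median 0.29) in vehicle mice and from -0.97 to -0.01 (median -0.29) in TCPOBOP mice, again without overlap. C4 had a log2 fold change of -0.72 (SE 0.13, adjusted p = 1.02e-04 in limma). The C4 signal sums C4a and C4b as far as their cDNAs bind.

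For C9 the vehicle mice lay between -0.71 and -0.08 (median -0.39) and TCPOBOP mice between -1.64 and -0.77 (median -1.44), so that the highest TCPOBOP mouse was just under the lowest vehicle mouse. C9 fell by 0.93 on the log2 scale (SE 0.24, adjusted p = 0.00329 in limma).

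Of the inhibitors, C4bp had the tightest vehicle group of the members, between 0.31 and 0.50 (median 0.39, SD 0.07). The 6 TCPOBOP mice lay between -1.11 and -0.48 (median -0.65), well clear of it. The log2 fold change of -1.13 (SE 0.14, adjusted p = 1.32e-06 in limma) was the 8th lowest of the 277 genes.

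Serping1 ranged from -0.19 to 0.49 (median 0.15) in vehicle mice and from -0.77 to -0.09 (median -0.41) in TCPOBOP mice. Here the groups overlapped, by the vehicle mouse at -0.19 and the TCPOBOP mouse at -0.09. Serping1 had a log2 fold change of -0.58 (SE 0.12, adjusted p = 4.61e-04 in limma). The groups of 4 of the 7 members did not overlap, beside 25.6% of all genes.

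For Orm1 the vehicle mice lay between -0.06 and 0.50 (median 0.01) and the TCPOBOP mice between -1.12 and 0.05 (median -0.66). The TCPOBOP mice were widely spread, with 2 at -0.11 and 0.05 that reached vehicle levels or nearly so. Orm1 fell by 0.65 on the log2 scale (SE 0.18, adjusted p = 0.0058 in limma).

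Crp ranged from -0.39 to 0.10 (median -0.24) in vehicle mice and from -0.30 to 0.20 (median 0.04) in TCPOBOP mice. These groups overlapped over most of their range, though 5 of 6 TCPOBOP mice were above the vehicle mean. The log2 fold change of 0.21 had a 95% interval of -0.01 to 0.43 (adjusted p = 0.122 in limma). Without vehicle mouse 5 it was 0.27 (adjusted p = 0.0459 in limma) and without TCPOBOP mouse 5 also 0.27 (adjusted p = 0.0463 in limma).

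**Figure D2:**
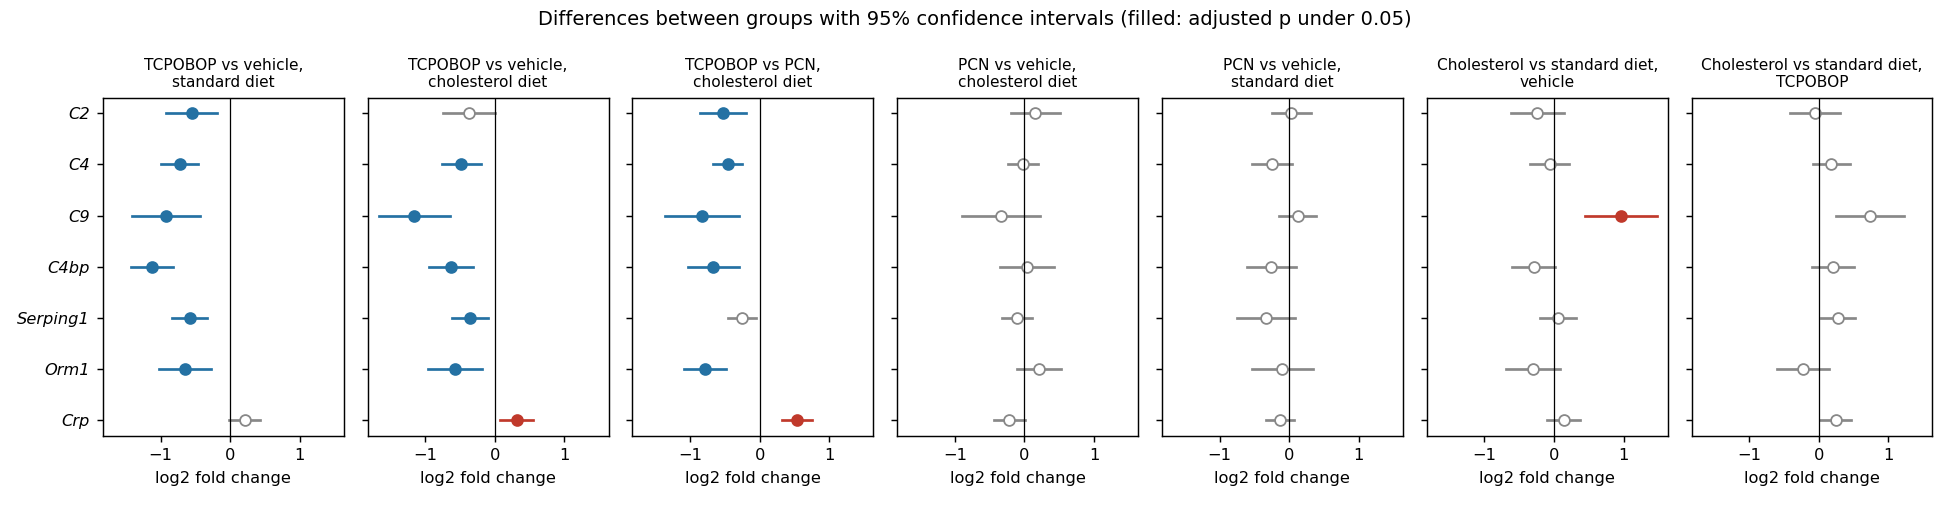
Log2 fold changes (horizontal axis) of the 7 genes in 7 comparisons, with 95% confidence intervals; filled points passed an adjusted p of 0.05 (blue lower, red higher in the group named first). The 3 TCPOBOP panels hold all calls but that of C9 with the diet, and the PCN panels hold none.

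On cholesterol diet 5 members fell with TCPOBOP and Crp rose. C9 fell 2.23-fold, C4bp 1.55-fold, Orm1 1.49-fold, C4 1.40-fold and Serping1 1.29-fold, each below the vehicle mean in 6 of 6 mice, and Crp rose 1.24-fold in 6 of 6 mice. C2 did not pass the test. Of all genes 37.5% passed, 14.4% lower and 23.1% higher, and the median log2 fold change was -0.48 for the members and -0.02 for all genes.

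The 5 vehicle mice on cholesterol diet had C9 ratios of 0.26, 0.38, 0.19, 0.69 and 1.26. In the 6 TCPOBOP mice C9 ranged from -1.22 to 0.33 (median -0.76). Only the TCPOBOP mouse at 0.33 fell within the vehicle range. The log2 fold change was -1.16 (SE 0.25, adjusted p = 8.85e-04 in limma).

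C4bp ratios were 0.17, 0.21, 0.19, -0.21 and 0.13 in vehicle mice, and ranged from -1.12 to 0.00 (median -0.53) in TCPOBOP mice. The groups overlapped through the vehicle mouse at -0.21. Its log2 fold change was -0.63 (SE 0.15, adjusted p = 0.00242 in limma).

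C4 was 0.43, 0.22, 0.33, 0.14 and 0.26 in vehicle mice and between -0.34 and -0.05 (median -0.23) in TCPOBOP mice. It was the only member whose groups did not overlap here, beside 14.4% of all genes. The log2 fold change was -0.48 (SE 0.14, adjusted p = 0.00726 in limma).

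C2 was -0.07, 0.07, 0.06, -0.42 and 0.51 in vehicle mice, a wide spread, and from -0.77 to 0.26 (median -0.31) in TCPOBOP mice. With 5 of 6 mice below the vehicle mean, its log2 fold change of -0.37 had a 95% interval of -0.75 to 0.01 (adjusted p = 0.115 in limma). Without vehicle mouse 5 it was -0.49 (adjusted p = 0.048 in limma) and without TCPOBOP mouse 3 also -0.49 (adjusted p = 0.0284 in limma).

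The calls of Serping1, Orm1 and Crp were weaker. Serping1 was 0.34, 0.32, -0.02, 0.11 and 0.41 in vehicle mice and -0.32 to 0.14 (median -0.15) in TCPOBOP mice, a log2 fold change of -0.36 (SE 0.12, adjusted p = 0.0265 in limma). Orm1 was 0.01, -0.13, -0.07, -0.22 and -0.68 in vehicle mice and -1.05 to -0.23 (median -0.85) in TCPOBOP mice, a log2 fold change of -0.57 (SE 0.19, adjusted p = 0.0212 in limma). Crp was -0.32, 0.26, -0.05, -0.27 and 0.02 in vehicle mice and -0.04 to 0.51 (median 0.23) in TCPOBOP mice, a log2 fold change of 0.31 (SE 0.11, adjusted p = 0.0323 in limma). All 3 genes overlapped between the groups. Without vehicle mouse 1 only 3 members passed, with adjusted p of 0.0588 for Serping1 (-0.34), 0.0529 for Orm1 (-0.51) and 0.0985 for Crp (0.25) in limma. Serping1 also lost its call without vehicle mouse 3 (-0.34, adjusted p = 0.0578 in limma) or 6 (-0.32, adjusted p = 0.0728 in limma), or without TCPOBOP mouse 1 (-0.32, adjusted p = 0.0582 in limma) or 4 (-0.35, adjusted p = 0.0501 in limma). For Crp the same held for vehicle mouse 5 (0.26, adjusted p = 0.0898 in limma) and TCPOBOP mice 2 (0.26, adjusted p = 0.0806 in limma), 4 (0.31, adjusted p = 0.0519 in limma) and 6 (0.30, adjusted p = 0.0532 in limma). With the authors' normalized log2 ratios, which include vehicle mouse 2, 3 members passed as well. Orm1 was also lost with median centring (-0.34, adjusted p = 0.24 in limma) and with loess on the spike spots (-0.36, adjusted p = 0.227 in limma), and Serping1 under the same settings (-0.42, adjusted p = 0.0622 and -0.40, adjusted p = 0.119 in limma). Crp was lost with plain background subtraction (0.21, adjusted p = 0.175 in limma) and in a fit of only the compared groups (0.31, adjusted p = 0.0616 in limma).

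TCPOBOP mice 5 and 6 on standard diet had the lowest ratios of their group for C2, C4, C4bp and Orm1: C2 was -0.81 and -0.73, C4 -0.97 and -0.71, C4bp -1.11 and -0.90, and Orm1 -1.12 and -0.87. C9 did not follow, since mouse 2 was at -1.64 and mouse 6 only at -1.09. On cholesterol diet the mice that carry numbers 5 and 6 were lowest for C2 (-0.63 and -0.77), C4bp (-0.85 and -1.12) and C9 (-1.16 and -1.22). For Serping1 they were the highest of that group (-0.09 and 0.14), and the lowest Orm1 was that of mouse 1 (-1.05). The median net signal of these 4 arrays was 192, 291, 287 and 275, beside 158 to 297 over all pool 1 arrays, and its part in these values was not tested.

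**Figure D3:**
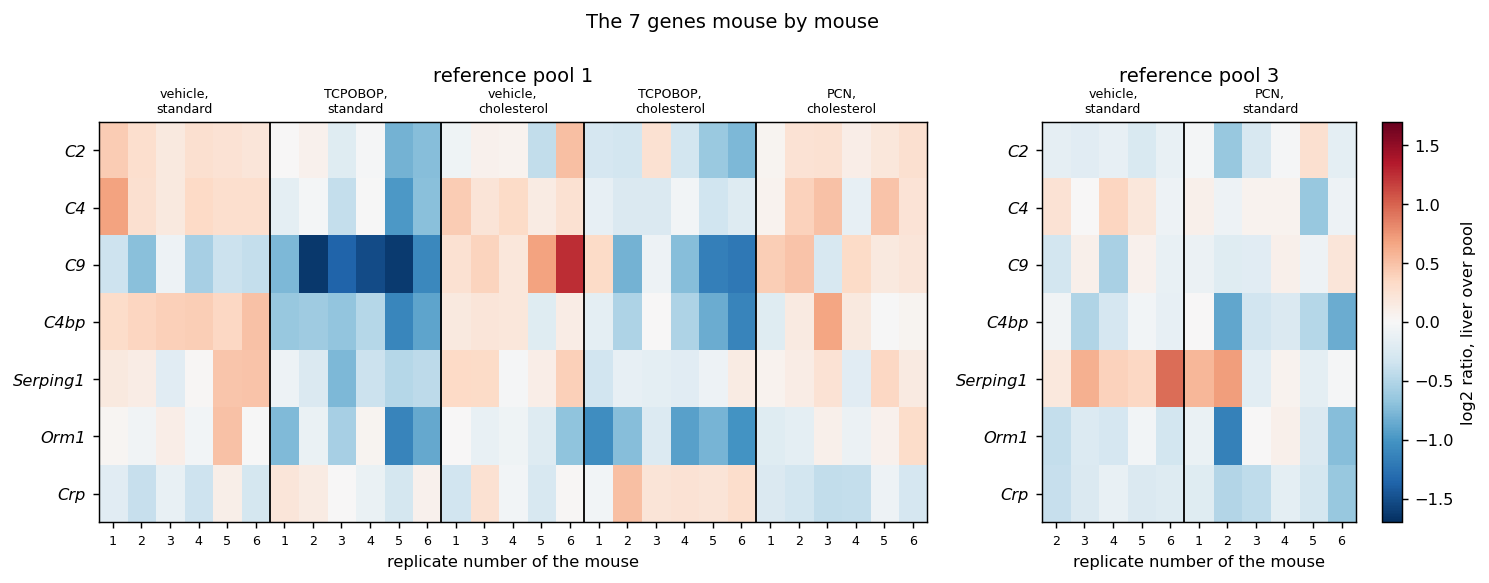
The 7 genes (rows) in every mouse (columns, numbered by replicate within each group), coloured by log2 ratio over the reference pool from blue (low) to red (high), with pool 1 on the left and pool 3 on the right. Blue columns in the TCPOBOP groups are deepest in mice 5 and 6 for C2 and C4bp, and C9 is red in cholesterol-fed vehicle mice.

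Some hepatocyte markers moved with TCPOBOP too. The ratios of the 11 measured of 14 listed hepatocyte markers were summed. On standard diet the sum was 12.03 to 13.7 in vehicle and 8.90 to 10.7 in TCPOBOP mice. There 4 of these genes fell, 0 rose and 7 were not called, while 21.3% of all genes were called lower. On cholesterol diet the sum was 10.9 to 14.1 and 9.12 to 10.7. There 3 fell, 0 rose and 8 were not called, while 14.4% of all genes were called lower. Log2 fold changes of the markers not called ran from -0.49 to 0.18 on standard and from -0.52 to 0.05 on cholesterol diet. In PCN mice the sum was 11.7 to 12.8 on cholesterol diet, where 0 of the 11 fell and 0 rose. In pool 3 it was 12.3 to 15.0 in vehicle and 10.2 to 12.2 in PCN mice. There 2 fell with PCN, 0 rose and 9 were not called, while 1.08% of all genes were called lower, so falls were not limited to TCPOBOP. Of 7 adipocyte markers 4 were measured, of which Lep, Retn and Pparg were above background on only 0, 5 and 17 of 40 arrays. The sum of the 4 was 4.32 to 4.72 in vehicle and 4.09 to 4.30 in TCPOBOP mice on standard diet, where Adipoq and Pparg fell. On cholesterol diet it was 3.81 to 4.33 and 3.98 to 4.48. Of 12 macrophage markers 2 were measured, Msr1 above background on 0 arrays and Abcg1 on 35, with sums of 1.76 to 2.36 over all pool 1 mice. Their part in the members' values was not tested, and 0 of the 13 markers listed for bile duct, endothelial, stellate and blood cells are on the array.

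Array files of pool 1 give spot positions in micrometres (9 arrays) or millimetres (20 arrays), and all groups hold both kinds. The unit follows the replicate number. In every group the arrays used have micrometres for mice 1 and 2 and millimetres for mice 3 to 6. With the unit as a block the same 6 members were called on each diet. Within the 20 millimetre arrays 6 members passed on standard diet, beside 36 of all 277 genes called lower. Their log2 fold changes were -0.67 for C2, -0.79 for C4, -1.05 for C9, -1.21 for C4bp, -0.72 for Serping1 and -0.76 for Orm1. Among the 9 micrometre arrays, 2 to a group and 1 for vehicle on cholesterol diet, the same 6 values were -0.33, -0.58, -0.68, -0.96, -0.31 and -0.42, and C4bp alone passed (adjusted p = 0.016 in limma). On cholesterol diet C4, C9 and C4bp passed within the millimetre arrays, beside 31 of all 277 genes called lower. Within the micrometre arrays, with 1 vehicle array, these 3 had log2 fold changes of -0.62, -0.49 and -0.52.

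Diet was then compared within vehicle mice. C9 rose 1.95-fold with 1 week of cholesterol diet, from -0.71 to -0.08 in the 6 mice on standard diet to 0.19 to 1.26 in the 5 on cholesterol diet, without overlap. Its log2 fold change of 0.96 (SE 0.25, adjusted p = 0.00819 in limma) was the 2nd highest of the 277 genes, of which 14.4% passed, 4.69% higher and 9.75% lower. The other 6 members did not pass, with log2 fold changes between -0.30 for Orm1 and 0.14 for Crp. C4bp was below the standard-diet range in 5 of 5 mice, at -0.21 to 0.21 against 0.31 to 0.50, with a log2 fold change of -0.29 (SE 0.15, adjusted p = 0.198 in limma). Groups of 2 members did not overlap, beside 10.8% of all genes. In a fit of these 2 groups alone C4bp also passed (adjusted p = 0.022 in limma). C9 had 0.98 within the millimetre arrays (adjusted p = 0.0183 in limma) and 0.79 within the micrometre arrays (adjusted p = 0.618 in limma).

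Among TCPOBOP mice 0 members differed between the diets, beside 4.33% of all genes (3.61% lower, 0.722% higher), and the groups of 0 members lay apart, beside 2.89% of all genes. C9 was again the member with the largest value, a log2 fold change of 0.73 (95% interval 0.24 to 1.22, adjusted p = 0.071 in limma), and all 6 mice on cholesterol diet were above the mean on standard diet. Serping1 had 0.27 (95% interval 0.03 to 0.52, adjusted p = 0.177 in limma) and Crp 0.24 (95% interval 0.02 to 0.46, adjusted p = 0.188 in limma). C9 passed without TCPOBOP mouse 5 (0.84, adjusted p = 0.0337 in limma) or 6 (0.85, adjusted p = 0.0481 in limma) on cholesterol diet, or without TCPOBOP mouse 1 on standard diet (0.84, adjusted p = 0.0388 in limma).

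Whether the response to TCPOBOP differed between the diets was tested as an interaction. Of the 277 genes 0 passed the test in limma, and 36 had an unadjusted p under 0.05. C4bp, whose fall was 2.18-fold on standard and 1.55-fold on cholesterol diet, had a difference of 0.50 on the log2 scale (95% interval 0.06 to 0.93, adjusted p = 0.277 in limma). The remaining members had differences of -0.23 for C9 to 0.24 for C4, each with an interval that includes 0.

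PCN was given to cholesterol-fed and to standard-fed mice. On cholesterol diet 0 members passed the test in limma (0 at an unadjusted p under 0.05), beside 1.08% of all genes (0.361% lower, 0.722% higher), and the groups of 0 members lay apart, beside 1.44%. Log2 fold changes ran from -0.33 for C9 (95% interval -0.89 to 0.23) to 0.21 for Orm1 (95% interval -0.10 to 0.53). Crp was -0.22 (95% interval -0.44 to 0.00) and was below the vehicle mean in 6 of 6 PCN mice. C9 was lower than the vehicle mean in 6 of 6 mice as well, and Orm1 and C2 higher in 6 of 6. The interval of C4bp, -0.35 to 0.42, leaves room for changes in either direction.

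On standard diet, measured against pool 3, 0 members passed either (0 at an unadjusted p under 0.05), beside 2.53% of all genes (1.08% lower, 1.44% higher), and the groups of 0 members lay apart, beside 3.61%. Serping1 had the lowest value, -0.33 (95% interval -0.75 to 0.08), and C9 the highest, 0.12 (95% interval -0.15 to 0.39). C4 was below the vehicle mean in 6 of 6 PCN mice, at -0.25 (95% interval -0.53 to 0.04). PCN mouse 2 stood low for C2 (-0.65), C4bp (-0.88) and Orm1 (-1.15), and PCN mouse 6 for C4bp (-0.85) and Orm1 (-0.73). A luciferase spike set these arrays apart, with 5 of 11 at a spike log2 ratio under -1.5. PCN mice 2, 5 and 6 were in the higher set and PCN mice 1, 3 and 4 in the lower. C4bp was -0.88, -0.48 and -0.85 in the former and 0.01, -0.32 and -0.25 in the latter. Orm1 and C4 were also lower in every PCN mouse of the higher set, and C2, C9, Serping1 and Crp were not. The cause of this split was not tested. Within either set, or with the set as a block, 0 members passed.

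TCPOBOP and PCN were compared directly on the cholesterol diet. C9 was 1.78-fold, Orm1 1.72-fold, C4bp 1.59-fold, C2 1.44-fold and C4 1.38-fold lower with TCPOBOP than with PCN, and Crp was 1.45-fold higher. Of all genes 27.4% passed, 11.9% lower and 15.5% higher. This comparison shares the TCPOBOP mice with the one against vehicle, and the doses and ages of the groups differ.

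Orm1 ranged from -0.21 to 0.31 (median -0.02) in the 6 PCN mice, against -1.05 to -0.23 with TCPOBOP. These did not overlap, and the log2 fold change was -0.78 (SE 0.14, adjusted p = 5.36e-04 in limma). Crp ranged from -0.42 to -0.09 (median -0.30) with PCN, under the whole TCPOBOP range of -0.04 to 0.51. Its log2 fold change was 0.53 (SE 0.10, adjusted p = 6.17e-04 in limma). For both genes every TCPOBOP mouse lay on its own side of every PCN mouse, as for 13.7% of all genes.

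C4 had a log2 fold change of -0.46 (SE 0.10, adjusted p = 0.00185 in limma) and C4bp of -0.67 (SE 0.17, adjusted p = 0.00848 in limma), each in 6 of 6 mice. C2 had -0.53 (SE 0.16, adjusted p = 0.0191 in limma) and C9 -0.83 (SE 0.25, adjusted p = 0.0226 in limma), each in 5 of 6. Serping1 did not pass, at -0.25 (95% interval -0.46 to -0.05, adjusted p = 0.0601 in limma). C9 lost its call without TCPOBOP mouse 5 (adjusted p = 0.0582 in limma) or mouse 6 (adjusted p = 0.0519 in limma), with -0.72 and -0.71. Serping1 passed without vehicle mouse 4 (-0.25, adjusted p = 0.0473 in limma), PCN mouse 4 (-0.32, adjusted p = 0.0163 in limma) or TCPOBOP mouse 6 (-0.31, adjusted p = 0.0262 in limma). Within the millimetre arrays 5 members passed, beside 17 of all 277 genes called lower and 34 higher, and C2 had -0.57 (adjusted p = 0.111 in limma). The fit of micrometre arrays held 1 vehicle array. There C2 had -0.44, C4 -0.41, C9 -0.68, C4bp -0.32, Orm1 -0.70 and Crp 0.51.

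In the order of mean levels over the 5 groups of pool 1, the TCPOBOP groups were the lowest 2 for all 6 members other than Crp. C9 ran from -1.33 (TCPOBOP, standard diet) over -0.61 (TCPOBOP, cholesterol), -0.41 (vehicle, standard) and 0.22 (PCN, cholesterol) to 0.55 (vehicle, cholesterol). C4bp ran from -0.73 and -0.53 in the TCPOBOP groups to 0.10, 0.14 and 0.39 in vehicle on cholesterol, PCN and vehicle on standard diet. For Crp the TCPOBOP groups were instead the highest 2, and its means ran from -0.29 (PCN) and -0.21 and -0.07 (vehicle on standard and cholesterol diet) to 0.00 and 0.24 with TCPOBOP. Neighbours in these orders overlapped in every case for all 7 members.

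Over the 29 pool 1 arrays the 6 members other than Crp were positively correlated, with Pearson's r of 0.314 (C9 and Orm1) to 0.839 (C2 and C4bp) and a median of 0.625. Crp had r of -0.523 to -0.181 with them. The 18915 pairs of all genes above background had a median r of -0.013. These points share groups and the reference, and after the group means were taken out the median was 0.371 for the 6 and 0.211 for pairs with Crp. C2 and C4bp then had 0.729, while C9 and Orm1 had -0.21.

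By Pearson's r over the same 29 arrays, among 194 other genes, the closest to C2 were Abcc1 (r = 0.846, and 0.748 with the group means taken out) and Abca1 (0.845 and 0.824). For C4 it was Cpt1a (0.857 and 0.707), with the next gene not named, and for C9 they were Igf1 (0.866 and 0.604) and Scarb1 (0.829 and 0.509). C4bp was nearest to Ppp1r3c, whose r of 0.886 was only 0.382 with the group means taken out, and to Saa3 (0.88 and 0.648). Serping1 was nearest to Nr2f6 (0.853 and 0.671) and Cebpa (0.835 and 0.511), and Orm1 to Saa3 (0.912 and 0.816) and Saa1 (0.898 and 0.77). Crp had no gene so close, with Slc10a2 (0.621 and 0.077) and Lip1 (0.586 and 0.076).

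Other acute phase proteins were on the array for 8 of 30 listed. The list holds proteins that rise and proteins that drop in the acute phase. With TCPOBOP 5 of the 8 fell and 0 rose on standard diet, beside 21.3% of all genes called lower. On cholesterol diet 5 fell and 0 rose, beside 14.4%, but the set was not the same, since albumin was called only there. Medians were -0.44 and -0.42 on the log2 scale, beside -0.01 and -0.02 for all genes. Saa4, the constitutive serum amyloid, fell by 0.27 (SE 0.09, adjusted p = 0.0168 in limma) on standard diet and by 0.38 (SE 0.09, adjusted p = 0.00242 in limma) on cholesterol diet. The inducible Saa1, Saa2 and Saa3, near-identical in part and able to bind each other's probes, fell on both diets by more than any of the 7 members. Apcs, serum amyloid P and the main acute phase pentraxin of the mouse, did not pass with TCPOBOP, at -0.33 (SE 0.29) and 0.69 (SE 0.30), and fell with cholesterol in vehicle mice by 1.03 (SE 0.30, adjusted p = 0.0219 in limma). Albumin (Alb), which drops in the acute phase, fell with TCPOBOP on cholesterol diet by 0.40 (SE 0.13, adjusted p = 0.0232 in limma) and had -0.30 (SE 0.13, adjusted p = 0.0601 in limma) on standard diet. With PCN 0 of the 8 passed on either diet, beside 1.08% of all genes on cholesterol and 2.53% on standard diet. The medians were 0.16 on cholesterol diet and -0.49 on standard diet (pool 3). The latter is as low as with TCPOBOP. There Saa1 had -1.05 (SE 0.37, adjusted p = 0.194 in limma) and Saa2 -1.04 (SE 0.33, adjusted p = 0.154 in limma). Saa4 (0.05), Alb (0.10) and Apoa1 (0.03) were slightly higher. Of 55 other complement and coagulation genes listed 3 were on the array. Of these 2 fell with TCPOBOP on standard diet and 0 on cholesterol diet, beside the 21.3% and 14.4% of all genes.

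**Figure D4:**
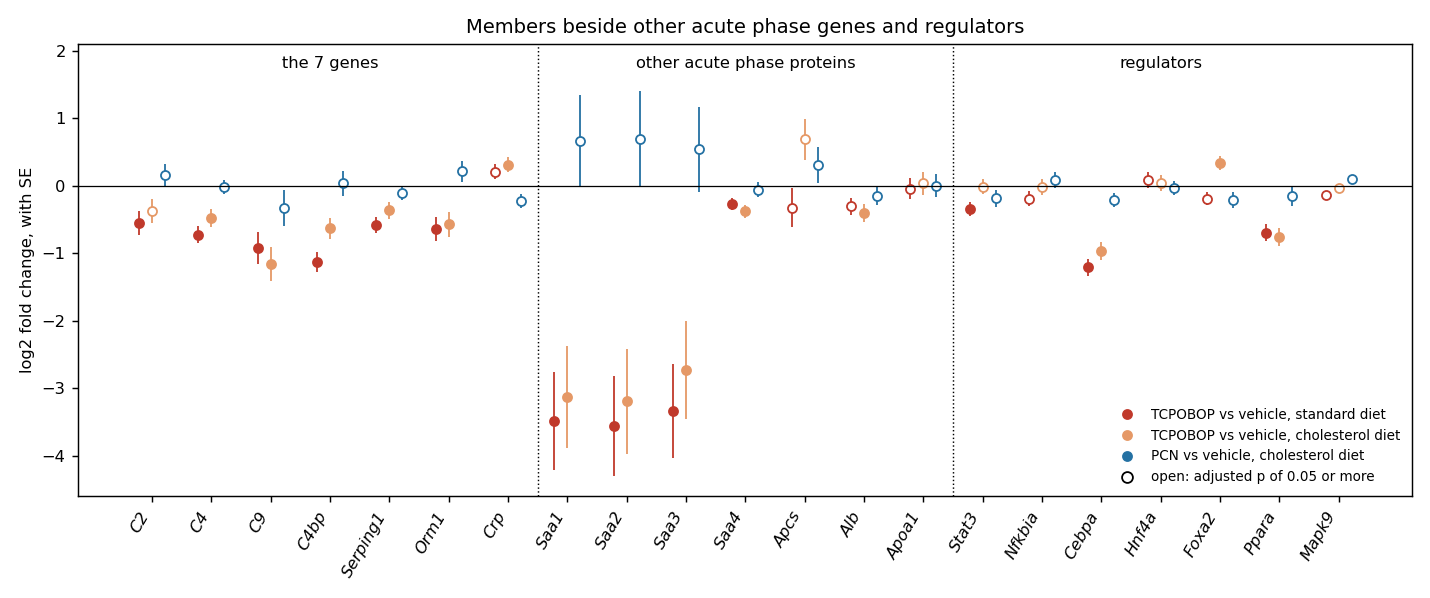
Log2 fold changes with SE (vertical axis) of the 7 genes, 7 other acute phase proteins and 7 regulators for TCPOBOP on standard diet (red), TCPOBOP on cholesterol diet (orange) and PCN on cholesterol diet (blue); open points did not pass an adjusted p of 0.05. Saa1, Saa2 and Saa3 lie near or below -2.7 with TCPOBOP, the members other than Crp between -1.16 and -0.36, and no PCN point is filled.

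Of 35 listed signalling and transcription factors of acute phase genes 13 were on the array. With TCPOBOP 4 fell and 2 rose on standard diet, beside 21.3% of all genes lower and 22% higher. On cholesterol diet 2 fell and 2 rose, beside 14.4% lower and 23.1% higher. The share of the list that was called was near that of all genes, 43.3% and 37.5%. Cebpa, a liver-enriched factor of many hepatocyte genes, fell by 1.21 on the log2 scale (SE 0.12, adjusted p = 4.79e-08 in limma) and 0.97 (SE 0.13, adjusted p = 2.96e-06 in limma). Ppara, the fatty acid receptor of hepatocytes, fell by 0.69 (SE 0.13, adjusted p = 1.42e-04 in limma) and 0.75 (SE 0.13, adjusted p = 1.26e-04 in limma). Stat3, the factor downstream of interleukin-6, fell by 0.35 (SE 0.10, adjusted p = 0.00888 in limma) on standard diet and had -0.01 (SE 0.11) on cholesterol diet. It also fell with cholesterol in vehicle mice, by 0.34 (SE 0.11, adjusted p = 0.0334 in limma). Foxa2, a liver pioneer factor, rose with TCPOBOP on cholesterol diet by 0.34 (SE 0.10, adjusted p = 0.0118 in limma) and had -0.19 (SE 0.10, adjusted p = 0.125 in limma) on standard diet. Nfkbia, the inhibitor of NF-kB, had -0.19 (SE 0.11) and -0.02 (SE 0.12), and Hnf4a 0.09 (SE 0.11) and 0.05 (SE 0.12). The other calls, of Jak2, Jun and Foxa1 on standard diet and of Jun on cholesterol diet, came from probes above background on 0 to 3 of 6 arrays in each group and carry no fold here. With PCN 0 of the 13 passed on either diet, beside 1.08% of all genes on cholesterol and 2.53% on standard diet.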

How the data were processed

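Liver RNA (Cy3) was hybridised with a reference pool (Cy5) on 2-colour cDNA arrays with 3 spots for each member's probe. The authors deposited spot intensities with local background, not normalized, and a table of log2 ratios they had normalized and averaged per probe. Of 42 samples, 40 arrays were used: cholesterol-fed vehicle mouse 2 has only the authors' log2 ratios, and 1 scanner file stood for vehicle mice 1 and 3 of pool 3, and was kept as mouse 3, since it correlated with that mouse's deposited ratios at r = 0.925 and with those of mouse 1 at r = -0.021. Mouse numbers are those of the labels.

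Intensities were background-corrected (normexp, offset 50), loess-normalized on mouse spots within each array and averaged over spots, as log2 of sample over reference, and the brightest probe stood for a gene. Above background means more than 2 background SDs over it. Ratios correlated with the deposited ones at r of 0.917 to 0.996 (pool 1) and 0.692 to 0.979 (pool 3). Of 406 pairs of pool 1 arrays, 140 had r under -0.3 (lowest -0.673), each a TCPOBOP array against another; the labels state the dyes, so the direction was kept.

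Groups were compared with limma 3.58.1 (R 4.3.3; Python 3.11.15), in 1 fit of the 4 vehicle and TCPOBOP groups, 1 of the 3 groups on cholesterol diet and 1 of pool 3, with Benjamini-Hochberg adjustment over 277 genes and a threshold of 0.05. Each sample is a mouse. Named are the members, Cyp2b10, Cyp3a11, and some of the listed genes and of the 2 genes most like each member; the rest of these stay unnamed and are only counted. The members and lists were chosen with earlier results of these data known. Alternatives were background correction, scaling, spot summary, deposited ratios, dim probes, batches, blocks, other tests and left-out mice. The fits were tested on simulated data. The number of arrays limits the precision.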

Additional observations from a re-analysis of the deposited data

Results flagged for a closer look

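In 4 of 49 combinations of a member and a group 1 mouse stood far from the others of its group, with a gap to its nearest neighbour that is large against the group's whole range; chance alone marks about 1 in 20. C4 was 0.69 in vehicle mouse 1 on standard diet, with the other 5 mice between 0.17 and 0.34. C4 was -0.64 in PCN mouse 5 on standard diet, with the others between -0.09 and 0.08. C4bp was -0.21 in vehicle mouse 5 on cholesterol diet, with the others between 0.13 and 0.21. Orm1 was 0.50 in vehicle mouse 5 on standard diet, with the others between -0.06 and 0.11.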

How the results depend on the processing

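Over 2493 values under alternative settings, 686 concerned members that passed, and 0 of these changed sign. Some settings could not change it. Another threshold, a t-test or a fit of only the compared groups leaves the log2 fold change as it was. So does leaving out a mouse of a group outside the comparison. The number of arrays and, in pool 3, the dimmer signal limit what could be seen. At the methods' threshold 78 genes passed for diet in vehicle mice, 17 for the interaction, 47 (1 member) for diet in TCPOBOP mice, 7 for PCN on cholesterol diet and 16 for PCN on standard diet, against 40, 0, 12 (0 members), 3 and 7. Plain background subtraction gave 3 genes for PCN on standard diet. Median centring gave 3 for diet in TCPOBOP mice and 0 for PCN on standard diet. Loess on the spikes gave 6 (1 member) and 1. With the deposited log2 ratios 74 instead of 120 genes passed for TCPOBOP on standard diet, 68 (3 members) instead of 104 (6 members) on cholesterol diet, 49 instead of 76 for TCPOBOP against PCN and 2 for PCN on standard diet, and 1 member passed for diet in TCPOBOP mice. Leaving out dim probes gave 3 genes for the interaction. Within micrometre arrays 33 genes (1 member) passed for TCPOBOP on standard diet, 25 (0 members) on cholesterol diet, 19 (0 members) for TCPOBOP against PCN, and 0 genes for diet in either treatment and for PCN. Within millimetre arrays the counts were 3 members for TCPOBOP on cholesterol diet and 1, 3 and 13 genes for the interaction, diet in TCPOBOP mice and PCN on cholesterol diet. Arrays of low and of high spike ratio, a split chosen after seeing the data, gave 1 and 0 genes for PCN on standard diet. With only the compared groups 2 members passed for diet in vehicle mice, and 5 genes each for diet in TCPOBOP mice and PCN on cholesterol diet. The methods' t-test lost Crp for TCPOBOP on cholesterol diet (adjusted p = 0.086 after Benjamini-Hochberg) and gave 2 members for diet in vehicle mice and 2, 1 and 2 genes for diet in TCPOBOP mice and PCN on cholesterol and standard diet; at the methods' threshold it gave 79 genes (2 members) for diet in vehicle mice and 6 for PCN on cholesterol diet. The cause of these shifts was not tested.

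Only values that had not passed changed sign. For diet in TCPOBOP mice C2 became 0.0104 with median centring, 0.0003 with loess on the spikes, 0.0025 with deposited ratios and 0.0813 within millimetre arrays. For PCN on cholesterol diet C4 became 0.0776 with median centring, 0.0017 with spike loess and 0.0342 within millimetre arrays, and C4bp -0.0663 with deposited ratios. For PCN on standard diet C2 became -0.0266 with median centring, -0.14 by spike loess, Orm1 0.35 at low and C9 -0.037 at high spike ratio. For diet in vehicle mice C4 became 0.0028 with loess on the spikes and 0.10 with deposited ratios. Within micrometre arrays the reversed values were 0.0315 for Orm1 and -0.0282 for Crp (diet, vehicle), -0.0427 for C4, 0.19 for C9, -0.26 for Serping1 and -0.49 for Orm1 (interaction), -0.0905 for C4 and -0.0611 for Serping1 (diet, TCPOBOP), and 0.19 for C9, -0.20 for C4bp, -0.21 for Orm1 and 0.0388 for Crp (PCN, cholesterol diet).

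With each mouse left out in turn, the members called for TCPOBOP on cholesterol diet numbered 3 to 7 and for diet in TCPOBOP mice 0 to 1. Genes called numbered 0 to 6 for the interaction, 7 to 23 for diet in TCPOBOP mice, 2 to 6 for PCN on cholesterol diet and 2 to 7 on standard diet. C4 ranged from -0.10 to 0.0073 and Serping1 from -0.02 to 0.12 for diet in vehicle mice, Orm1 from -0.0419 to 0.20 for the interaction, C2 from -0.18 to 0.029 for diet in TCPOBOP mice, C4 from -0.0702 to 0.0575 and C4bp from -0.0687 to 0.11 for PCN on cholesterol diet, and C2 from -0.05 to 0.13 and Orm1 from -0.19 to 0.061 for PCN on standard diet.

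Loess on the spikes moved the median of all genes by -0.17 for PCN on standard diet, and the deposited ratios moved it to 0.15 for diet in TCPOBOP mice. Of the calls, 71.95% rather than 61.54% were higher for TCPOBOP on cholesterol diet and 68.42% rather than 56.58% for TCPOBOP against PCN with loess on the spikes.

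Mice of different groups share replicate numbers, which in pool 1 follow the unit of spot positions. In the 3 fits 15 of 33, 5 of 16 and 1 of 5 same-numbered pairs had deviations correlated over 0.1. Their median r was 0.048, 0.003 and -0.13 (highest 0.522, 0.671 and 0.321), beside -0.005, 0.009 and 0.075 for other pairs. The numbers were not taken as pairs. With the replicate block 6 members passed for TCPOBOP on standard diet, 5 on cholesterol diet (Crp 0.30, adjusted p = 0.0584 in limma) and 6 against PCN, where C9 no longer passed (adjusted p = 0.0509 in limma) and Serping1 did (adjusted p = 0.0375 in limma), and 1 gene passed for PCN on standard diet.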

Other observations

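Arrays with no scanner values of their own in the fits have the authors' deposited log2 ratios. Vehicle mouse 2 on cholesterol diet had 0.04 for C2, 0.50 for C4, 0.71 for C9, 0.39 for C4bp, 0.22 for Serping1, -0.10 for Orm1 and 0.14 for Crp. Vehicle mouse 1 on standard diet of pool 3 had -0.05 for C2, 0.07 for C4, -0.33 for C9, -0.12 for C4bp, 0.00 for Serping1, -0.47 for Orm1 and -0.21 for Crp.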
